A study of Mus musculus with 14 samples.

Results

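The retinoic acid receptors and the enzymes that make and degrade retinoic acid are described here by how much of each gene's start region lay under peaks of trimethylated lysine 27 of histone H3 (H3K27me3) in mouse cerebellum. The members are a fixed list of genes, not picked by a threshold on these values but chosen with earlier results of these data known. They are Rara, Rarb, Rarg, Rxra, Rxrg, Aldh1a1, Aldh1a2, Aldh1a3, Cyp26a1 and Cyp26b1, which are 10 of 21938 protein-coding genes in the GENCODE vM21 annotation of GRCm38 (mm10). Around every annotated transcription start site (TSS) a window of 3 kb to each side was drawn, and alternative TSSs were kept apart, which gave 49 windows of the 93513 of all protein-coding genes. Windows whose TSSs lay within 3 kb of each other share most of their bases, so the 49 windows are described as 22 start-site groups, numbered along each gene from its 5′ end.

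Chromatin immunoprecipitation followed by sequencing (ChIP-seq) was done on cerebellum of C57BL/6NCrl mice of both sexes at the ages of 7 (P7), 14 (P14) and 60 (P60) days after birth, with 3 biological replicates at each age. No transgene, deletion or treatment is given for these animals. Each P7 and P14 replicate pooled several animals and each P60 replicate was 1 mouse, so the ages also differ in how many animals a library averages. The granule neurons that dominate the tissue stop dividing and mature over this time, but whole tissue was used, and fewer cells carrying the mark at a gene cannot be told apart from less of the mark per cell.

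Retinoic acid is made from retinaldehyde by the Aldh1a enzymes and is oxidised by the Cyp26 enzymes, so the balance of the enzyme families sets how much of it a tissue holds. It binds the retinoic acid receptors (RARs), which pair with retinoid X receptors (RXRs) on direct repeats of a short DNA motif and switch target genes on when the ligand is bound. In the hindbrain the signal is best known for its part in early patterning along the body axis. H3K27me3 is laid down by Polycomb repressive complex 2, mostly over CpG-rich start regions of developmental genes, and is associated with genes that are kept silent.

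The 9 peak lists were of unequal size. They held 6905 to 15600 peaks that covered 1.48 to 15.2 Mb, and the P60 lists covered 1.48 to 3.61 Mb where the P7 lists covered 7.38 to 15.2 Mb. In P60 replicates 1 and 2 the median peak was 134 and 149 bp wide, and in P14 replicate 1 it was 269 bp, against 410 to 751 bp in the other libraries. Read depth is not given by the files, so the part of depth in these lengths was not tested, and all values below are coverages of called peaks, not amounts of the mark. Over the 13713 windows covered in at least 2 libraries, 6290 fell from P7 to P60 and 47 rose (limma, Benjamini-Hochberg adjusted p under 0.05). After each library's coverage was divided by its mean the split was 3011 to 623, and with all lists cut to the same covered length it was 623 to 86 of 3842 windows.

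Of the 22 start-site groups of the retinoid genes, 12 had a window covered in at least 2 libraries and were tested (33 windows of 9 genes), and 10 groups (16 windows) had no peak in any of the 9 libraries. From P7 to P60, 19 of the 33 windows fell, in 8 start-site groups of 5 genes: Rara, Rarg, Aldh1a2, Aldh1a3 and Cyp26b1. The called window of the second Rarg group was covered only at P7 and entered the test through those libraries. No window of the 10 genes rose. Over all genes 45.9% of tested windows fell and 0.343% rose, and 46.4% of tested genes had at least 1 window that fell, so the share of retinoid windows and genes that fell was close to that of all genes. With P60 replicate 3 as the only P60 library, that age has no spread of its own, and calls are not given. The differences at Rara and Rarg, at 0 in every P60 library, were unchanged (−66.7 points at the third Rara group), and that of Aldh1a2 is given below. From P7 to P14, 9 windows of 2 genes fell (Rara and Rarg), against 13.4% of all tested windows and 13.1% of all tested genes, and none rose. The 9 became 3 without P14 replicate 1 or 2, where 6.77% and 3.85% of all tested windows fell. Without any 1 of the P60 libraries it was 5 (7.38% to 9.75% of all), and without another library 6 to 12 (11.9% to 22.4%). Without P14 replicate 1 the 2 windows of Cyp26a1 rose, as did 2.32% of all tested windows. From P14 to P60 no retinoid window passed, where 1.51% of all tested windows and 1.75% of all tested genes fell. At an unadjusted p under 0.05, a looser threshold, 7 of the 33 were counted, and the share of all windows at it was not computed. Without P14 replicate 1, 6 of the 33 passed as lower, where 20.4% of all 13580 tested windows did. The median P60 minus P7 difference was −25.3 points (percentage points of the window) over the 33 retinoid windows and −11.5 points over all tested windows. The retinoid windows were more covered at the outset: their mean over all 49 windows was 10.1% to 21.1% at P7, where the mean of all windows was 1.85% to 3.54%. By each gene's window of highest mean, the 10 genes averaged 19.5% to 31.0% in the P7 libraries, and 28 further retinoid genes 6.21% to 10.4%. The 10 genes were chosen with earlier results of these data known, so this difference cannot be told apart from the choice.

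**Figure D1:**
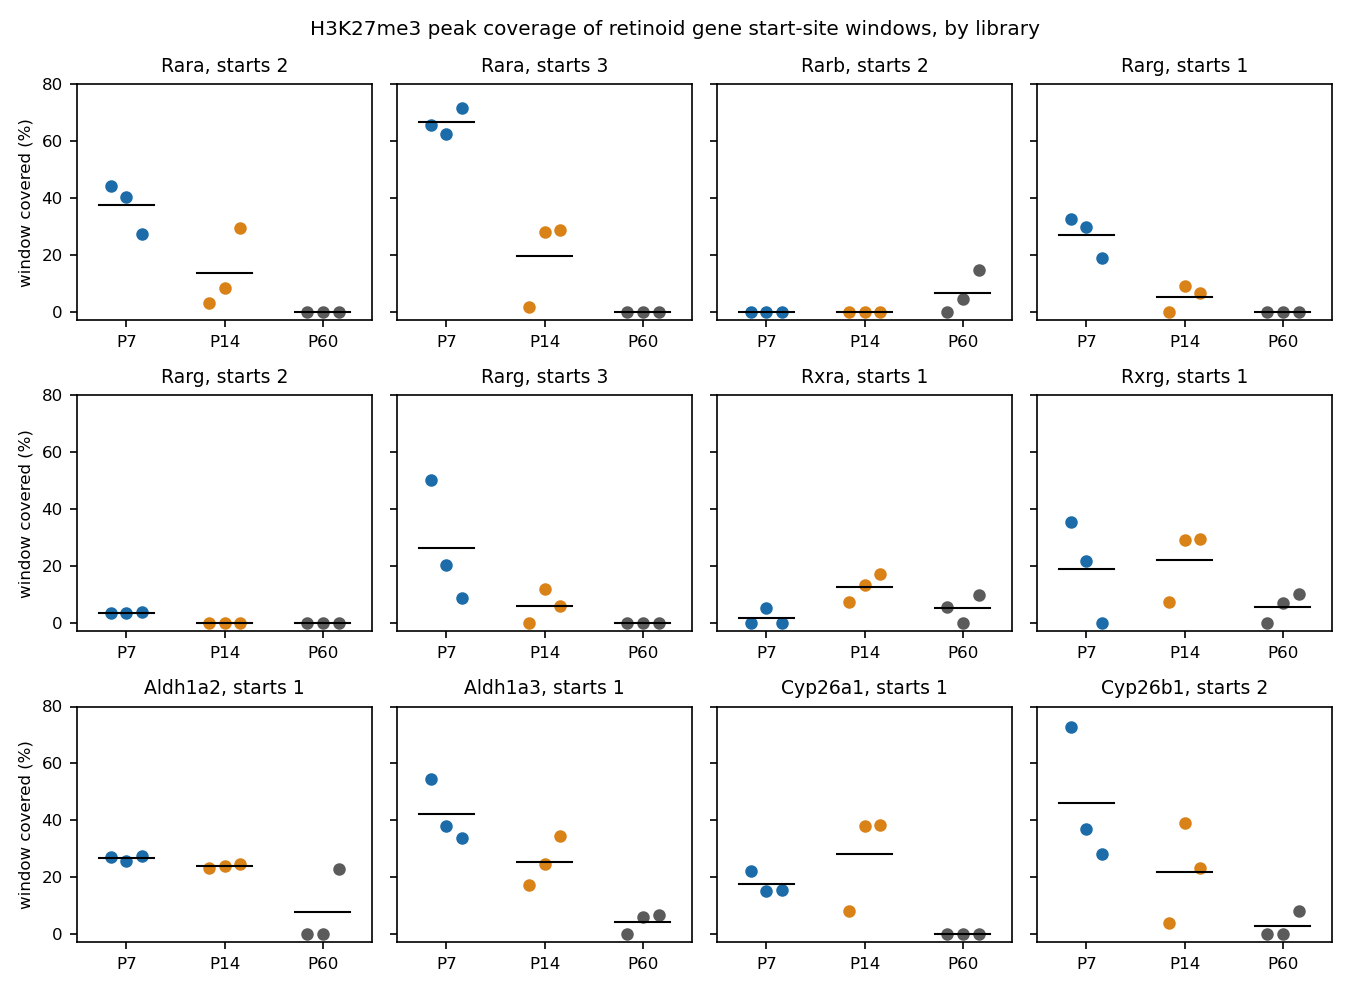
Share of the 6-kb window under H3K27me3 peaks (y axis, percent) in each of the 3 libraries of P7, P14 and P60 (points, replicates 1 to 3 from left to right) for the 12 start-site groups with a tested window, each shown by its window of highest mean, with the mean as a line. Rara, Rarg, Cyp26a1 and Cyp26b1 lie at or near 0 at P60, Rarb is covered only at P60, and Aldh1a2 holds the same level in the P7 and P14 libraries and in P60 replicate 3.

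Rara encodes RAR alpha, the most widely expressed of the receptors. It had 3 start-site groups in 47.1 kb of chromosome 11. The most 5′ TSS (chr11:98927818, transcript Rara-203) had no peak in any library. The second group (5 TSSs from 98937698 to 98939712) carried a peak of 2662 bp in P7 replicate 1, and the third (98960412, the start of transcript Rara-202) a peak of 4014 bp.

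At the third Rara group, coverage was 65.6%, 62.7% and 71.9% in the P7 libraries. It was 1.68%, 28.3% and 28.9% at P14, and 0% in all 3 libraries at P60. The 3 ages did not overlap. The fall from P7 to P14 was −47.1 points (SE 7.57, adjusted p = 0.00362), and that from P7 to P60 was −66.7 points (SE 7.57, adjusted p = 0.000725), the largest fall of the 12 groups and the highest P7 mean, 66.7% ± 4.72 (SD, n = 3). The P14 to P60 difference of −19.6 points (SE 7.57, adjusted p = 0.15) did not pass, but without P14 replicate 1, the P14 list of fewest bases, it was −28.6 points (adjusted p = 0.00692). Without that library 20.4% of all tested windows were lower at P60 than at P14, against 1.51% in the main test.

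At the second Rara group, coverage was 44.4%, 40.5% and 27.4% at P7, 2.97%, 8.28% and 29.5% at P14 and 0% in all 3 libraries at P60. P14 replicate 3 alone reached the P7 range. The window at 98937698 fell by P60 (−37.4 points, SE 6.99, adjusted p = 0.00228), and by P14 (−23.8 points, SE 6.99, adjusted p = 0.0465). The second of these calls was lost without P14 replicate 1 (adjusted p = 0.15), without P14 replicate 2 (0.15), without P7 replicate 1 (0.143) or 2 (0.107), and without any 1 of the P60 libraries (0.0723 to 0.0763), which enter through the shared estimate of spread. Relative to each library's mean coverage the P7 to P14 differences at 98937698 (adjusted p = 0.212) and at the third group (0.0895) did not pass, and those at the last 2 TSSs of the second group, 98939711 and 98939712, did (0.0479 each). Peaks also lay 40.3 to 42.5 kb after the first TSS, inside the gene and outside all windows, in P7 replicates 1 and 2 and P14 replicates 2 and 3, and in no P60 library.

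Rarg encodes RAR gamma, best known in skin and cartilage, and had the mark over 3 start-site groups on the minus strand of chromosome 15. The first group (102257517 and 102257349) was covered by 32.7%, 29.9% and 18.9% at P7 and 0%, 9.05% and 6.52% at P14, and by 0% in all 3 libraries at P60. Every P7 library lay above every P14 library. The fall was −22.0 points (SE 4.66, adjusted p = 0.0139) by P14 and −27.1 points (SE 4.66, adjusted p = 0.00163) by P60. When peaks below a −log10 q of 2 were left out, the differences were −18.7 (adjusted p = 0.139) and −20.9 points (0.0564).

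The third Rarg group (102246500 to 102243589, the start of shorter transcripts) had the most unequal P7 libraries of the Rarg groups, with 50.2%, 20.4% and 8.80% at the middle TSS, then 0%, 11.8% and 5.80% at P14 and 0% in all 3 libraries at P60. It fell from P7 to P60 (−26.5 points, SE 8.50, adjusted p = 0.0262), a call lost without any 1 of the P60 libraries (adjusted p = 0.0646 to 0.0672 with the same difference). Without P7 replicate 1 it was −14.6 points (adjusted p = 0.0304). From P7 to P14 the difference was −20.6 points (SE 8.50, adjusted p = 0.131), which became −29.4 points and passed without P7 replicate 3 (adjusted p = 0.0328), and became −8.76 points without P7 replicate 1 (0.256). The second group held 1 narrow peak of 209 to 224 bp in the P7 libraries, which covered 3.65%, 3.48% and 3.73% of the window at 102250346 and nothing at P14 or P60. That window entered the test through the P7 libraries alone, so its calls add no support to this description. Its own P7 SD was 0.127 points, and the limma SE of 1.09 came mostly from spread borrowed from other windows. It passed in both comparisons (−3.62 points, adjusted p = 0.0195 at P60), but not without P60 replicate 1 (0.0821) or 2 (0.0868). The call at P14 (0.0495) was lost without any 1 of the P14 or P60 libraries (0.0651 to 0.14). The neighbouring window at 102252640 touched the same peak with under 0.3% of its bases and was not called in either comparison. Outside the gene and upstream of it, peaks lay at the start of Gm9918 (chr15:102270563), whose window was covered by 20.1% to 33.0% at P7, 5.27% to 26.2% at P14 and 3.12% to 18.8% at P60.

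Rarb encodes RAR beta, itself a textbook target that retinoic acid switches on. Its 2 most 5′ TSSs (chr14:16819156 and 16819005) had no peak in any library. The second group (5 TSSs from 16575827 to 16575045) had none at P7 or P14, and was covered by 0%, 4.58% and 14.8% at P60. The difference of +6.48 points (SE 3.12, adjusted p = 0.106) did not pass, and 1 of the 3 P60 libraries was at 0. Without that library, P60 replicate 1, the 5 windows, which share the same covered bases, were called higher (+9.72 points, adjusted p = 0.0336). They entered the test only through the P60 libraries with a peak, and the library left out was the P60 library without a peak. This call is therefore no support for a rise. The peaks were weak: that of P60 replicate 3 spanned 891 bp at 3.08-fold enrichment, with a q value that ranked above only 4.92% of the peaks in its list. Both peaks lay in an intron of Rarb upstream of the start-site group (chr14:16576378-16577268 in replicate 3 and chr14:16577039-16577313 in replicate 2), inside the annotated antisense RNA Gm48162. A peak has no strand, so the peaks cannot be assigned to Rarb or to Gm48162.

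RARs bind with RXRs at direct repeats of a motif of 6 bases, here searched as AGGTCA, the variant AGTTCA, the variant GGGTCA or the variant GGTTCA on both strands, with 1, 2 or 5 bases between the repeats. Promoters of 300 bases (most of them before each RefSeq start, GRCm38.p6) were at hand for 9 of the members, 16 promoters in all. A repeat spaced 5 bases apart, the arrangement best known as a retinoic acid response element, was found in 2 of the 16 promoters, that of Rarb and that of Cyp26a1, and in 32 of all 32851 promoters (0.0974%). Repeats spaced 1 or 2 bases apart were in no member promoter, and in 0.222% and 0.268% of all promoters. The 2 promoters are shown 5′ to 3′ with the repeats in capitals, because a repeat spaced 5 bases apart sat in a promoter that carried peaks and in a promoter that did not. The 2 repeats differ in a motif variant, in the bases between and in strand.
Rarb promoter, chr14:16575427-16575726, minus strand: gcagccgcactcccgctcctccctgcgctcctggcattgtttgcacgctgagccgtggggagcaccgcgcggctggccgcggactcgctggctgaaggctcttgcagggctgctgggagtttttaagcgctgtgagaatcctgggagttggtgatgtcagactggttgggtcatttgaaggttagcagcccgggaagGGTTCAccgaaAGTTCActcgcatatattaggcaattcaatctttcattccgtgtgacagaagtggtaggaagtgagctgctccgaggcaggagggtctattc
Cyp26a1 promoter, chr19:37697558-37697857, plus strand: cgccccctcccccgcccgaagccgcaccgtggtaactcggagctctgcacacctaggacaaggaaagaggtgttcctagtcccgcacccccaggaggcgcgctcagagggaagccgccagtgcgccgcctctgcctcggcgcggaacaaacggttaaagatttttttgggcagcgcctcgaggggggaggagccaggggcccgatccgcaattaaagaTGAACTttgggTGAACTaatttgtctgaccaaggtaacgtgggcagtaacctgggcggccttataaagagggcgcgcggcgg
The first base of the repeat was at −53 from the RefSeq start in Rarb (chr14:16575513-16575529) and at −32 in Cyp26a1 (chr19:37697776-37697792, with the motif on the opposite strand). No peak of any library lay over the Rarb repeat, or over any of the 300 bases. The Cyp26a1 repeat lay under a peak in 3 of the 9 libraries, P7 replicate 3 and P14 replicates 2 and 3. A match to these letters does not show that a receptor binds there.

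At P7 both RXR genes had lower mean coverage than Rara and Rarg, an order that did not hold at P14 or P60, and with all libraries neither passed the test in any comparison. Rxra encodes RXR alpha, a partner shared with many nuclear receptors. At its first group (chr2:27676440 to 27677262), the window at 27677201 was covered by 0%, 5.07% and 0% at P7, 7.28%, 13.2% and 17.3% at P14 and 5.60%, 0% and 9.80% at P60. All 3 P14 libraries lay above all 3 P7 libraries, which held for 1.99% of all tested windows, yet the difference of +10.9 points (SE 4.07, adjusted p = 0.107) did not pass (95% interval 1.95 to 19.9). Except in P7 replicate 2, the peaks lay in an intron 1.62 to 3.11 kb after the first TSS and not over it. The other 2 start-site groups (27709292 to 27710583 and 27740201) had no peak.

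Rxrg encodes RXR gamma, which is found in restricted sets of cells. Its first group (chr1:167598384 to 167598480) was covered by 35.6%, 21.7% and 0% at P7, 7.25%, 29.2% and 29.4% at P14 and 0%, 6.88% and 10.00% at P60. The ages overlapped in every pairing, and the P60 minus P7 difference was −13.5 points (SE 8.77, adjusted p = 0.217), with a 95% interval of −32.8 to 5.84. Without P7 replicate 3, the P7 library with no peak there, it was −23.0 points (adjusted p = 0.0388), and without P7 replicate 1 it was −5.22 points (0.677). The first of these calls is no support for a fall, because the library left out was the P7 library at 0. In that setting 55.6% of all tested windows were lower at P60 than at P7. The sign of the difference turned, uncalled, relative to each library's mean coverage (+1.57 times that mean, 0.38) and with all lists cut to the same covered length (+5.63 points, 0.135). The position of the peak also differed: in the P7 and P14 libraries that had one it lay over the TSSs, and in P60 replicates 2 and 3 it began 0.80 and 0.94 kb after the first TSS. The TSS at 167618309 was never covered.

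Of the enzymes that make retinoic acid, Aldh1a1 had no called peak, and Aldh1a2 and Aldh1a3 had peaks at P7 and P14. Aldh1a1 had no peak in any library, in its 5 windows on chromosome 19 (TSSs 20492715 to 20492760 and 20601961) or elsewhere within 10 kb of the gene, a region of 171 kb. Aldh1a2, the enzyme of the embryo and the meninges, had nearly the same coverage in all P7 and P14 libraries. Its only TSS (chr9:71215789) was covered by 27.1%, 25.7% and 27.4% at P7 and by 23.2%, 23.8% and 24.7% at P14, while P60 replicates 1 and 2 were at 0 and replicate 3 was at 22.9%. The peak of 1376 bp in P60 replicate 3 (chr9:71215275-71216650) lay inside that of P7 replicate 1 (chr9:71215050-71216674).

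The P7 to P60 difference of Aldh1a2 was −19.1 points (SE 6.18, adjusted p = 0.0273), a fall by the test that rests on the 2 libraries with the narrowest peaks. It was −15.2 points and not called without P60 replicate 1 (adjusted p = 0.118) or 2 (0.12), and −3.77 points without both. Without 1 of the P7 libraries the adjusted p was 0.0544 to 0.0652. Relative to each library's mean over the tested windows, the difference was −0.242 times that mean (adjusted p = 0.909). From P7 to P14 the difference was −2.80 points (SE 6.18, adjusted p = 0.786), although every P7 library was above every P14 library, as in 27.5% of all tested windows. The SDs were 0.911 at P7, 0.790 at P14 and 13.2 at P60. All ages share 1 estimate of the spread, so this p value does not measure the spread of the P7 and P14 libraries alone.

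The start regions of Aldh1a1 and Aldh1a2 differed in base composition, and are shown with each CpG in capitals because the first of them had no peak over its promoter and the second had the most libraries with one. The Aldh1a2 promoter held 50 CpGs in 300 bases and was wholly under a peak in 7 of 9 libraries, and the Aldh1a1 promoter held 3 CpGs and was under none. Of the 16 member promoters 9 had no peak in any library, with 1 to 17 CpGs, and the other 7 held 12 to 55. The median of all 32851 promoters was 7 CpGs.
Aldh1a2 promoter, chr9:71215539-71215838, plus strand: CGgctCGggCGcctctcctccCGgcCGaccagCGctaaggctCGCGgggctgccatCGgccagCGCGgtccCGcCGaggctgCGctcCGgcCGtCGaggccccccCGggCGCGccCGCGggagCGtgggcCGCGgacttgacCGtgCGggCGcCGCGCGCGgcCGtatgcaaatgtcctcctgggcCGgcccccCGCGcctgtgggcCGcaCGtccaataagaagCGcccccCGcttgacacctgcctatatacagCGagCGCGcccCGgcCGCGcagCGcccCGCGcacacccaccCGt
Aldh1a1 promoter, chr19:20492333-20492632, plus strand: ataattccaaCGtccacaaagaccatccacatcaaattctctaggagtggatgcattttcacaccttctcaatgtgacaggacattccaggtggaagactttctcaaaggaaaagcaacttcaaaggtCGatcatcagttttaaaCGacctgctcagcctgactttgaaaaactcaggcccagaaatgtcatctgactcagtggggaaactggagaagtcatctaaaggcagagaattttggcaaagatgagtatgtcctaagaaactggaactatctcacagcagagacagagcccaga
Rara promoter, chr11:98937446-98937745, plus strand: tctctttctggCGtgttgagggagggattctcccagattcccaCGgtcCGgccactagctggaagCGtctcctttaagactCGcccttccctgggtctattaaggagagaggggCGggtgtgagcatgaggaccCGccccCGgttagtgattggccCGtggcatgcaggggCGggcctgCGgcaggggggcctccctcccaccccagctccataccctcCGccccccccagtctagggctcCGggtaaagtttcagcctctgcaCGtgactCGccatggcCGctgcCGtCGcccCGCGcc
The Rara promoter, from the second start-site group, held 20 CpGs. It was under a peak over its whole length in P7 replicates 1 and 2, over 25.3% of it in P7 replicate 3 and 21.0% in P14 replicate 2, and not at all in the other 5 libraries. CpG count alone did not order the promoters: the Rxra promoter of the first group held 55 CpGs, and a peak reached over 5% of it in P7 replicate 2 alone.

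Aldh1a3, the third enzyme of synthesis, known from the eye and the olfactory region, was marked over its first group (chr7:66427517 to 66425701, minus strand). Coverage was 54.4%, 38.0% and 33.6% at P7, 17.2%, 24.5% and 34.4% at P14 and 0%, 5.93% and 6.80% at P60, and all P60 libraries were below all others. It fell from P7 to P60 (−37.8 points, SE 6.76, adjusted p = 0.0019), and the steps from P7 to P14 (−16.7 points, SE 6.76, adjusted p = 0.126) and from P14 to P60 (−21.1 points, SE 6.76, adjusted p = 0.1) did not pass. At the TSS 66425701 the second step passed without P14 replicate 1 (−25.2 points, adjusted p = 0.026), as it did in 20.4% of all tested windows. Relative to each library's mean coverage, the P7 to P60 difference there was −0.398 times that mean (adjusted p = 0.819). The TSSs at 66419235 and 66406002 had no peak.

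Cyp26a1, which degrades retinoic acid and is itself induced by it, was the member with the highest mean coverage at P14. Its 2 TSSs (chr19:37697798 and 37698085) were covered by 22.1%, 15.1% and 15.5% at P7, 8.20%, 38.0% and 38.2% at P14 and 0% in all 3 libraries at P60. P14 replicates 2 and 3 lay above, and P14 replicate 1 below, all P7 libraries. No step passed: P14 minus P7 was +10.6 points (SE 7.26, adjusted p = 0.327), P60 minus P14 was −28.1 points (SE 7.26, adjusted p = 0.0619) and P60 minus P7 was −17.6 points (SE 7.26, adjusted p = 0.0671). Without P14 replicate 1 all 3 passed, with a rise of 20.5 points by P14 (adjusted p = 0.015), then a P60 minus P14 difference of −38.1 points (0.00319), and a P60 minus P7 difference of −17.6 points (0.00342). In that setting 2.32% of all tested windows rose by P14, 20.4% were lower at P60 than at P14 and 46.1% were lower at P60 than at P7. The neighbour Cyp26c1, an enzyme of the same family whose start is 12.2 kb upstream, had its own peak, with 31.5% to 52.2% of its window covered at P7, 0% to 53.0% at P14 and 0% in all P60 libraries.

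Cyp26b1, the Cyp26 enzyme best known in brain, limb and gonad, had a start region with peaks and another without, with 5.11 kb between their nearest TSSs. The upstream TSSs (chr6:84593908 and 84593746, minus strand) had no peak in any library. The downstream group (84588638 to 84587680) was covered by 72.9%, 37.0% and 27.9% at P7, 3.73%, 38.9% and 23.0% at P14 and 0%, 0% and 8.13% at P60. P7 and P14 overlapped, and all P7 libraries were above all P60 libraries. It fell from P7 to P60 (−43.2 points, SE 11.4, adjusted p = 0.0108), while the P7 to P14 difference (−24.1 points, SE 11.4, adjusted p = 0.169) did not pass. The call was lost relative to each library's mean coverage (adjusted p = 0.0731), without the peaks below a −log10 q of 2 (0.145), and with all lists cut to the same covered length, where the gene had no peak left at P7 or P60 (0 points). The 1 peak left at P60, in replicate 3, lay in an intron 7.26 to 7.75 kb after the first TSS, past the downstream TSSs.

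**Figure D2:**
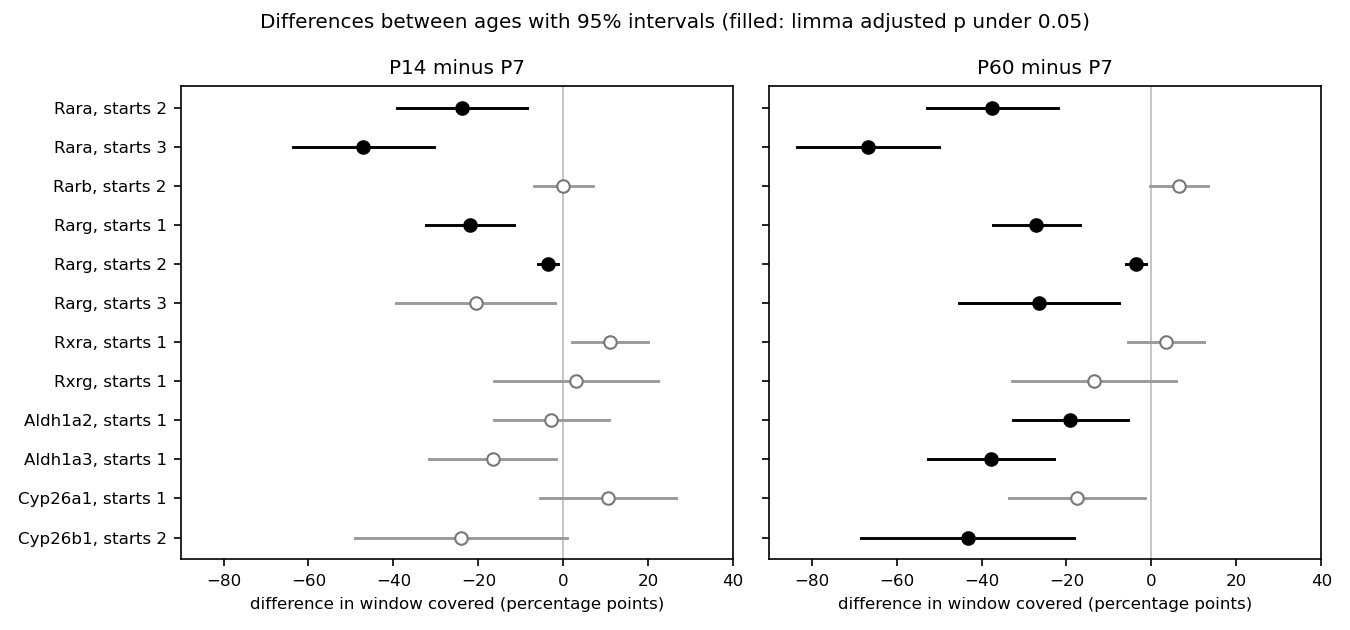
Difference in window coverage (x axis, percentage points) of P14 minus P7 and of P60 minus P7 for the 12 start-site groups, with 95% intervals from limma as lines. Filled points passed an adjusted p of 0.05. The filled points are all below 0, from −3.62 points at the second Rarg group to −66.7 points at the third Rara group, and Rarb and Rxra lie above 0 at P60 with intervals that include 0.

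All windows are 6001 bp, so levels can be set side by side between genes. By each gene's window of highest mean, the order at P7 was Rara (66.7% ± 4.72 (SD, n = 3)), Cyp26b1 (46.0 ± 23.8), Aldh1a3 (42.0 ± 11.0), Rarg (27.1 ± 7.29), Aldh1a2 (26.7 ± 0.911), Rxrg (19.1 ± 17.9), Cyp26a1 (17.6 ± 3.95) and Rxra (1.69 ± 2.92), with Rarb and Aldh1a1 at 0. Among neighbours in this order, Aldh1a3 was above Rarg and Cyp26a1 was above Rxra in every library, and the other neighbours overlapped. At P14 the order was led by Cyp26a1 (28.1 ± 17.3), Aldh1a3 (25.4 ± 8.62) and Aldh1a2 (23.9 ± 0.790), with SDs that span the differences. At P60 no member exceeded 7.64% on average, Aldh1a2 and Rarb were the first in order (7.64 ± 13.2 and 6.48 ± 7.60), and Rara, Rarg and Cyp26a1 were at 0 in each library.

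Of the 33 tested retinoid windows, 22 had all 3 P7 libraries above all 3 P60 libraries, against 52.4% of all tested windows. For P14 over P60 it was 10 of 33, against 24.5%. Libraries differed within an age in the same direction at most members: of the 10 start-site groups covered at P14, P14 replicate 1 was the lowest in 10, and of the 11 covered at P7, replicate 1 was the highest in 7. P60 replicate 1 was at 0 in 11 of the 12 groups, although it held the most peaks of all lists, and P60 replicate 3 was the highest P60 library in each of the 6 groups with a P60 peak.

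**Figure D3:**
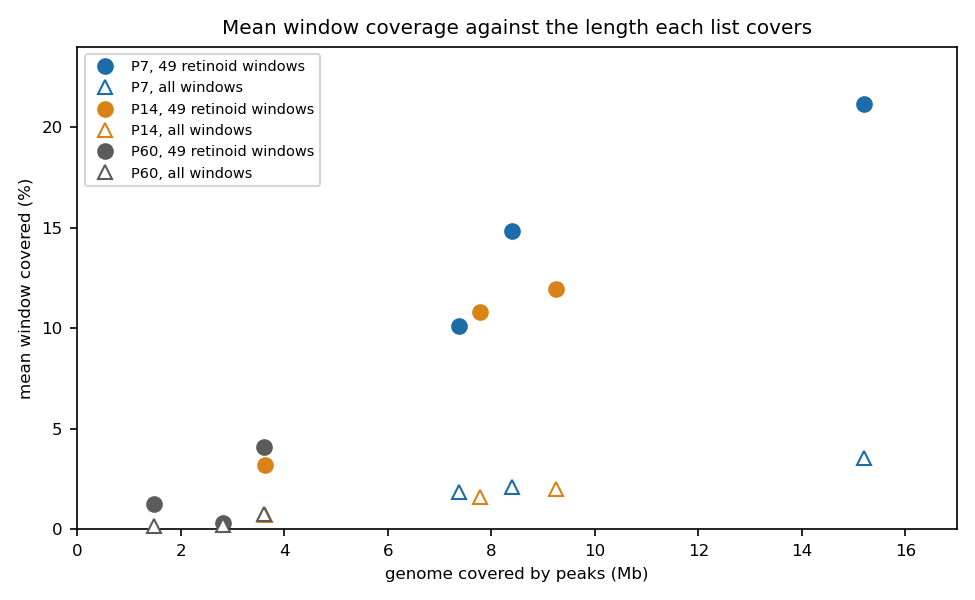
Mean share of the window covered (y axis, percent) against the length of genome that each library's peaks cover (x axis, Mb) for the 49 retinoid windows (circles) and for all 93513 windows (triangles), 9 libraries. P60 replicates 1 and 2, the shortest lists, have the lowest means of both kinds, and P7 replicate 1, the longest, the highest, while the lists between do not follow strict order of length. P14 replicate 1 and P60 replicate 3, of 3.62 and 3.61 Mb, have retinoid means of 3.18% and 4.11%.

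The covered and the never covered start regions differed in a feature that the choice of members did not use. The 12 covered start-site groups had a median of 28.3 CpGs per kb of window (13.8 to 46.3), and the 10 never covered groups a median of 10.5 (4.17 to 17.7). Over all genes the medians were 23.5 in tested windows and 15.8 in windows never covered. The same held within genes: Rara (17.7 in the uncovered group, 28.3 in each covered one) and Cyp26b1 (9.50 and 46.3) had their starts without a peak in the CpG-poorer window. Within the covered windows, bases that lay under a peak in at least 1 library were denser in CpG than the rest in 7 of 9 genes, from 24.3 against 11.9 per kb in Rxrg to 91.6 against 15.6 in Aldh1a2. The other 2 genes were Rarb (5.34 against 19.5) and Rxra (24.6 against 41.9), the same 2 whose mean coverage was lower at P7 than at P60. These densities are descriptions over 22 groups that share genes, with no test.

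**Figure D4:**
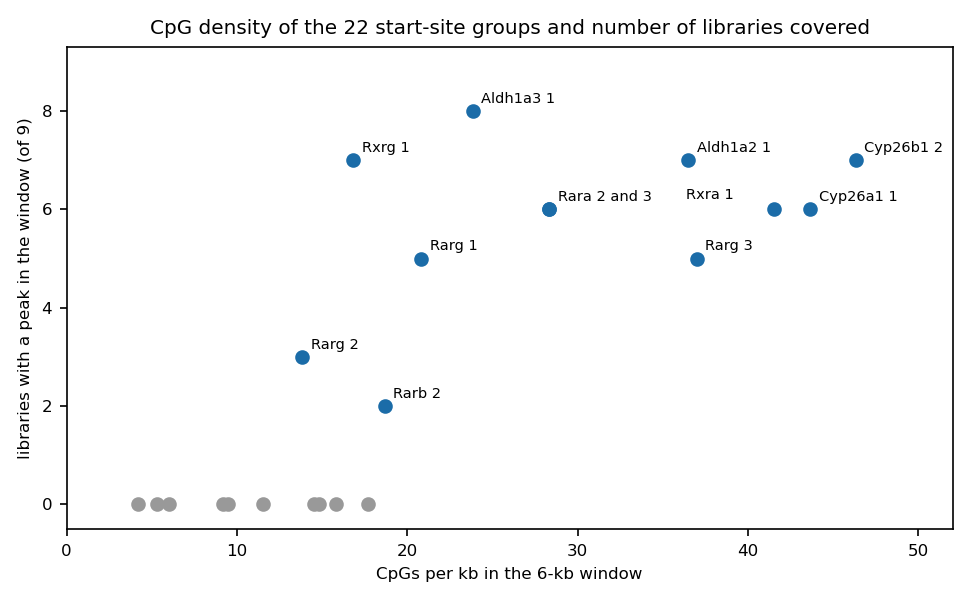
CpGs per kb in the first window of each of the 22 start-site groups (x axis) and number of the 9 libraries with a peak in the group (y axis). The 10 grey points at 0 libraries lie between 4.17 and 17.7 CpGs per kb, and the 12 covered groups, labelled by gene and group number, lie between 13.8 and 46.3.

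Other genes of the pathway are set here against the 46.4% of all tested genes that had a window lower at P60 than at P7. Among 28 further receptors, binding proteins and enzymes of retinoids, 11 were tested, 5 fell from P7 to P60 and none rose, with a median difference of −9.66 points against −12.0 over all tested genes. The 4 of largest change were Crabp2 (45.6% ± 19.8 to 0%, adjusted p = 0.00635) and Crabp1 (39.8% ± 4.93 to 3.65% ± 6.32, 0.00144), which bind retinoic acid in the cytoplasm, Cyp26c1 (41.3% ± 10.4 to 0%, 0.011), and Lrat (25.1% ± 5.75 to 5.75% ± 9.97, 0.028), which stores retinol as an ester. Rxrb, the third RXR gene, had a peak in 1 library and was not tested. Among 13 other partners of RXR, 5 were tested and 5 fell (median difference −27.5 points), the largest changes being Nr4a1 (35.8% ± 4.56 to 0%, 0.000725), Nr4a2 (30.3% ± 11.5 to 0%, 0.00233), Pparg (27.5% ± 11.8 to 0%, 0.00758) and Ppara (35.3% ± 4.77 to 12.5% ± 11.9, 0.0154). Of the 12 cofactors of the receptors only Zbtb16 was tested, and it fell (21.7% ± 4.17 to 1.96% ± 3.39, 0.00358). Of 15 textbook targets of retinoic acid 12 were tested, 7 fell from P7 to P60 (median of the 12, −22.9 points), and none rose. Among them were Cdx1 (46.5% ± 3.39 to 8.29% ± 4.51, 0.000833) and Meis2 (28.1% ± 19.3 to 0%, 0.0458), which encode transcription factors. All values are means ± SD of 3 libraries and p values are from limma over all windows.

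Markers of the cell types of the tissue were counted in the same comparison, in which 46.4% of all tested genes fell. Of 10 granule neuron markers 6 were never covered, among them Gabra6 and Zic1, and the 2 tested fell from P7 to P60: Rbfox3 (39.6% ± 2.65 to 0%, adjusted p = 0.000424) and Cbln1 (21.9% ± 16.5 to 0%, 0.0197). The summed coverage of this list was 44.0 to 97.0 points at P7, 0 to 1.72 at P14 and 0 at P60. Of 10 meningeal fibroblast markers 5 of the 7 tested fell, Crabp2 among them, with sums of 103 to 217 at P7, 52.6 to 200 at P14 and 0 to 16.8 at P60. The counts of tested genes that fell were 2 of 5 for choroid plexus, 1 of 5 for astrocytes and Bergmann glia, 3 of 4 for the oligodendrocyte lineage, 3 of 4 for Purkinje cells and 2 of 5 for endothelial, mural and microglial cells, and none rose in any list. The 10 retinoid genes summed to 195 to 310 points at P7, 68.5 to 205 at P14 and 5.60 to 72.5 at P60. The part of changing cell shares in the retinoid coverage was not tested.

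Genes whose coverage over the 9 libraries was most like that of the 3 most covered members were found by Euclidean distance between windows of highest mean, over 5093 other genes. For Aldh1a3 they were Bmp6 (7.31 points), Ccno (7.58) and Sh3pxd2a (9.26), which had P7 means of 38.6% to 41.5% and P60 means of 3.28% to 4.48%. For Cyp26b1 they were Rax (18.2), Efcc1 (20.1) and Gata4 (20.7). Near Rara were Sox7 (26.5) and Kcnk9 (27.8), whose P7 means of 57.6% and 54.0% were below that of Rara.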

How the data were processed

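H3K27me3 ChIP-seq was done on cerebellum at P7, P14 and P60, with 3 libraries an age. Per the submitters' processing notes and the study's methods, the tools were FastQC, Trimmomatic 0.38, STAR 2.7.2b and MACS2 2.1, the genome was mm10, broad peaks were called in each library on its own, and no input library is named. The deposited lists give, for each peak, its position, a score, a fold enrichment ratio over the library's own background, and −log10 p and −log10 q. The deposited −log10 q values begin at about 1 in each list, while the named false discovery rate was 0.01. The files hold no read counts, so depth is unknown and no counting interval can be given.

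From the positions, the percent of each window of 6001 bp under peaks was computed (Python 3.11.15) and tested with limma 3.58.1 in R 4.3.3, with trend and robust variance, over the 13713 TSS windows covered in at least 2 of the 9 libraries. All ages shared 1 estimate of the spread, and p values were adjusted by the Benjamini-Hochberg method over all windows, with calls at 0.05. The fit was tested on simulated data with known changes. Apart from those changes, all ages had the means and spread of the P7 libraries. The simulation therefore did not cover the unequal list lengths or the many zeros at P60. P values measure the spread between these libraries, each of which is 1 pool of animals or 1 animal. Windows of TSSs close together are not independent.

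The 10 genes and the other gene lists were chosen with earlier results of these data known. The rule for naming genes was to name all members, the 4 genes of largest P7 to P60 change among those that passed in each other pathway list, and the 3 genes nearest in pattern to each of the 3 most covered members. Of the genes this rule names, 3 are not reported here. Of the marker lists only granule neuron genes, and a gene shared with the pathway list, are named. Promoter sequences are from RefSeq (GRCm38.p6). Same-numbered replicates of different ages did not deviate together (correlations of deviations −0.172 to 0.255 over windows), so numbers were not used as pairs. The series also has 2 Kdm6b-WT and 3 Kdm6b-cKO lists. Their peaks of 800 bp or more overlapped those of P14 replicate 3 in 2.33% to 3.91% of cases, against 45.4% to 91.0% for the other age lists, with a commonest offset of −110 kb on chromosome 11 and 236 kb on chromosome 14, so their positions are not on the build used here and they were not analysed here.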

Additional observations from a re-analysis of the deposited data

How the results depend on the processing

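The 19 windows lower at P60 than at P7 became 11 without peaks below a −log10 q of 2, 8 without those below 4, 8 with all lists cut to the same covered length, 12 relative to the library mean, 5 with 1 window a gene (the 5 genes called in the main test) and 0 without P60 replicates 1 and 2. Leaving out 1 library gave 14 to 21 windows. Without P60 replicate 1 the count of 19 held 5 windows of Rarb called higher, which share the same peaks and were covered only at P60. From P7 to P14, 9 of 33 windows were lower, against 13.4% of all tested windows. With windows of 5 kb to each side it was 5 of 35 (11.9% of all), and relative to the library mean 4 of 33 (9.15%). At the same covered length it was 5 of 15 (7.37%), and without trend and robust variance 5 of 33 (14.4%). Without peaks below a −log10 q of 4 it was 5 of 9 (5.81%). With 1 window a gene it was 2 of 9 (11.7%), and over windows covered in at least 1 library 5 of 33 (7.27%). Leaving out 1 library gave 3 to 12, where 3.85% to 22.4% of all tested windows were lower. Without P14 replicate 1 the 5 calls were 3 lower and the 2 windows of Cyp26a1 higher. From P14 to P60 the count of 0 became 1 of 24 with 1 kb to each side (8.92% of all windows). It was 1 of 28 without peaks below a −log10 q of 2 (7.14%) and 2 of 33 relative to the library mean (7.23%). Leaving out 1 library gave 0 to 6 (0% to 20.4% of all). With the replicate number as a block, 18 windows were lower at P60 (39.0% of all), 3 at P14 (5.50%) and 0 from P14 to P60 (0%). The causes were not tested. No called difference of a start-site group reversed under these alternatives.

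Over all windows, those lower from P7 to P14 numbered 754 with the replicate block against 1833 in the main test, and those lower from P14 to P60 numbered 207, from 0 (leaving out P14 replicate 2 or 3, for example) to 2765 (without P14 replicate 1). A fit with no filter could not be made, because 75138 of 93513 windows had no peak in any library, so windows covered in at least 1 library were used, an alternative chosen after seeing the data. The comparison of Kdm6b-cKO with Kdm6b-WT and its alternatives were not run. Peak coverage has no level below the caller's threshold, so 0% does not show that the mark is absent.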
